A study of Mus musculus with 35 samples.

Results

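Heat shock proteins and J-domain chaperones were followed in brown adipose tissue (BAT), the heat-producing fat depot, of control mice and of mice with a double knockout of Suv420h, the enzymes Suv420h1 and Suv420h2 that methylate histone H4. The genes were taken from the count tables by name. They were all entries that begin with Dnaja, Dnajb or Dnajc and a digit, or with Hspa, Hspb, Hspd, Hspe, Hsph or Hsp90 and further letters or digits, together with Ahsa1, Ahsa2, Hsf1, Bag3, St13 and Stip1. This rule gave 74 of 13364 genes over both experiments: 64 of 10731 at 4 weeks and 74 of 13233 at 21 weeks, 64 of them in both. After a filter on low counts 63 and 73 were tested, and Dnajc12 at 4 weeks and Hspbap1 at 21 weeks were left out. The names also take in Hspb11, a subunit of intraflagellar transport, Hspbap1, and 4 pseudogene entries (Dnajc19-ps, Hspa9-ps1, Hspd1-ps3 and Hspd1-ps4) that are in the 21-week table alone. Hspa1a, Hspa1b, Hspa2 and Hspb2 were not analysed at 4 weeks, and Hspb3 and Hspb7 at neither age.

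The first experiment held 15 libraries of mice aged 4 weeks on normal diet: 9 of control mice (5 with the label female, 4 male) and 6 of knockout mice (5 female, 1 male). The second held 20 libraries of female mice aged 21 weeks in 4 groups of 5: control and knockout, each on normal diet (nd) or on a diet with 45 kJ% fat (hfd) for 14 weeks. The strain, the kind of knockout allele and the cells in which the genes are deleted are not stated in the labels, and neither is whether each replicate is its own animal; the p-values thus rest on the spread between libraries, which may be technical.

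Chaperones bind unfolded or partly folded proteins and keep them from clumping. Hsp70 proteins do so in cycles of ATP hydrolysis: J-domain proteins deliver the client and start the hydrolysis, and nucleotide exchange factors such as Bag3, Hspbp1 and the Hsp110 proteins reset the cycle. Clients pass on through Stip1 (Hop), which tethers Hsp70 to Hsp90, and Ahsa1 stimulates the ATPase of Hsp90. In the mitochondrial matrix Hspa9 (mortalin) pulls in imported proteins, and Hspd1 (Hsp60) with its lid Hspe1 (Hsp10) folds them in a closed chamber. Small heat shock proteins hold clients without ATP. Under heat or misfolding, the transcription factor Hsf1 binds inverted repeats of the pentamer nGAAn and switches many of these genes on. Brown fat cells are rich in mitochondria, whose proteins are for the most part made in the cytosol and imported.

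Upstream sequences are shown for 3 genes that carry the pentamer repeat and are described below, Hspe1, Hspa1a and Hspb1, and for Ahsa2 and Hspb8, which were higher in the knockout at 4 weeks and hold no such repeat in this window. Each is the 250 bases before the annotated start, from RefSeq on GRCm38.p6, 5′ to 3′ on the gene's own strand. Capitals mark every match to GAANNTTC or TTCNNGAA, that is, 2 neighbouring inverted pentamers. Each motif equals its own reverse complement, so both strands are covered, and overlapping matches are merged in capitals.

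Hspe1 (chr1:55087898-55088147, plus strand): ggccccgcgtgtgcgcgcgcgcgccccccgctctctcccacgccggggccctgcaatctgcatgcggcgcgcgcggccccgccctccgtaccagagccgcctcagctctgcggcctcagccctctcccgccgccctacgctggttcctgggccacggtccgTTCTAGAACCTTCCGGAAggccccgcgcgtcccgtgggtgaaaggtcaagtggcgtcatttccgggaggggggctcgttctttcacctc

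Hspa1a (chr17:34972157-34972406, minus strand): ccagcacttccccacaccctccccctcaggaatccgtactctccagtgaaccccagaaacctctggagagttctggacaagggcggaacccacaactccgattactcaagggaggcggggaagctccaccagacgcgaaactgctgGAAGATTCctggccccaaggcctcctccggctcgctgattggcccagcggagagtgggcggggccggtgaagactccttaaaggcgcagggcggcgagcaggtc

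Hspb1 (chr5:135887669-135887918, plus strand): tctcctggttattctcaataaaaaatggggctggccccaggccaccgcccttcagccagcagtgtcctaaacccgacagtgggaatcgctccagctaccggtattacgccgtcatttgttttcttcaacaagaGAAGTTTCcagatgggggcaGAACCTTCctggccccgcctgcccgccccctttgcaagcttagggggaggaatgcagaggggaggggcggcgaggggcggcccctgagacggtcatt

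Ahsa2 (chr11:23498040-23498289, minus strand): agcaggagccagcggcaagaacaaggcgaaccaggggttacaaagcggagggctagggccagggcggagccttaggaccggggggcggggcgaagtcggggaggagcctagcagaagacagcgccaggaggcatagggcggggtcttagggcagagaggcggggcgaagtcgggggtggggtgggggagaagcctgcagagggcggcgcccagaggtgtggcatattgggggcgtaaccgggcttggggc

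Hspb8 (chr5:116422865-116423114, minus strand): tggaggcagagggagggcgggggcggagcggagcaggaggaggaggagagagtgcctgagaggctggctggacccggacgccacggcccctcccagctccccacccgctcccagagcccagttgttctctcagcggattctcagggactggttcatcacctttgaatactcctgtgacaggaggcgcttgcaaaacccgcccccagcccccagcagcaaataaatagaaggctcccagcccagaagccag

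Windows were found for 55 of the 74 genes. A repeat of 2 pentamers stood in 13 of the 55 (23.6%), against 14.5% of the 27025 genes of the table: Dnaja1, Dnaja4, Dnajb4, Dnajb6, Dnajc10, Dnajc27, Hspa1a, Hspa1b, Hspb1, Hspb6, Hspd1, Hspe1 and Hsph1. A run of 3 pentamers (the first motif followed by NNGAA, or its reverse complement, the second followed by NNTTC, each holding the shorter motif) stood in 3 of the 55 (5.45%), against 0.514% of the table, and these were Dnajb6, Hspd1 and Hspe1. Hspe1 and Hspd1 lie head to head and their windows share 215 bases, so the run in both is one and the same stretch. The windows of the near-identical copies Hspa1a and Hspa1b differ at 3 of 250 bases. Of the genes with a window that were called in a genotype or diet comparison below, Hspe1 had the repeat, and Ahsa1, Ahsa2, Hspb8, Hspbp1 and Dnajc16 had no match. A match is a stretch of letters and no evidence of binding, and its absence says only that these letters are not in this window.

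Total counts were 3069035 to 8140213 per library at 4 weeks and 2398807 to 7693388 at 21 weeks. Suv420h1 and Suv420h2 were not analysed at 4 weeks. At 21 weeks Suv420h2 stood at 27.1 to 75 CPM (tags scaled to a common library size) in control against 9.99 to 21.1 CPM in knockout mice on normal diet, and at 7.39 to 25.8 and 4.84 to 16.9 CPM on high fat diet, while Suv420h1 overlapped on both diets; a 3′ tag outside the deleted part checks nothing. The brown fat marker Ucp1 was high throughout, at 2530 to 17700 CPM. At 4 weeks the libraries fell into a set of 6 with 27.4 to 30.1% mitochondrially encoded counts, the 5 labelled male and knockout replicate 2, and a set of 9 with 14.1 to 20.4%. Xist went against the labelled sex in 2 of the 15 libraries, knockout replicate 2 (1.72 CPM, labelled female) and control replicate 6 (236 CPM, labelled male). At 21 weeks the summed levels of 30 skeletal muscle markers were 264, 43500, 8130, 20800 and 2180 CPM in replicates 1 to 5 of the control group on normal diet, 138 to 2690 CPM in the knockout on that diet, 109 to 5280 CPM in control and 151 to 269 CPM in knockout libraries on high fat diet.

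Since 1 tag stands for 1 transcript whatever its length, CPM was not divided by length. By mean CPM, 16 of the 63 genes tested at 4 weeks were at 100 CPM or more, 37 between 10 and 100, and 10 below 10; at 21 weeks the numbers were 15, 37 and 21 of 73. Together they took 6363 to 15328 CPM per library at 4 weeks and 5801 to 8985 CPM at 21 weeks. The cytosolic Hsp90ab1 led at both ages, with means of 3568 and 1689 CPM. Next came the mitochondrial Hspa9 (1060 and 1130 CPM) and Hspa5, the Hsp70 of the endoplasmic reticulum also called BiP (916 and 721 CPM). The mitochondrial import J-domain protein Dnajc15 stood at 332 and 255 CPM, the highest of the J-domain genes at both ages. Hsf1 itself was low, at 2.85 and 1.97 CPM.

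The first comparison asked how loss of the enzymes changes these genes in young mice. Of the 63 genes tested, 4 were higher in the knockout (adjusted p below 0.05, edgeR) and 0 lower, beside 0.83% of all 10366 genes called in either direction (0.502% higher and 0.328% lower). They were Hspe1, the lid of the mitochondrial chaperonin, the Hsp90 activators Ahsa1 and Ahsa2, and the small heat shock protein Hspb8, a partner of Bag3. The median log2 fold change over the 63 was 0.15, against -0.01 over all genes, and 40 of 63 were positive against 5085 of 10366. Before adjustment 17 of 63 (27%) were higher at p below 0.05, where 8.29% of all genes were, and 4 (6.35%) lower, where 7.63% were. In bulk tissue fewer cells of a type and less RNA per cell cannot be told apart. Summed brown adipocyte markers were 28400 to 44200 CPM in control and 32800 to 49800 CPM in knockout libraries, with 11 of 17 positive and 1 called (Elovl3, 1.88 ± 0.33 SE, adjusted p = 0.0179), and their part in these calls was not tested. Knockout replicate 5 was the highest library for 15 of the 63 genes (23.8%), and for 11.4% of all genes.

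In the mitochondrial chaperonin, Hspe1 (chr1:55088132-55091307) was at 165 CPM at the lowest, 243 at the median and 303 at the highest of 9 control libraries and at 360.2, 403 and 446 CPM in the 6 knockout libraries. The groups did not overlap, which held upwards for 2 of the 63 genes beside 0.338% of all genes. Its log2 fold change, the quantity given in brackets from here on, was 0.78 ± 0.13 SE (adjusted p = 0.00999), and it was called in 15 of 15 fits with 1 library left out (0.69 to 0.87). Its partner Hspd1, which forms the chamber, was at 255, 334 and 428 CPM in control against 378, 417 and 509 CPM in knockout libraries, which overlapped (0.49 ± 0.13 SE, adjusted p = 0.0894). Hspe1 and Hspd1 overlap on opposite strands, both have named pseudogenes, and the strand setting of the counting is not given, so tags may be shared between them. The mitochondrial Hsp70 Hspa9 (0.21, adjusted p = 0.312) and the import J-domain proteins Dnajc15 (0.26) and Dnajc19 (0.03) were not called. Of the 8 mitochondrial genes 6 were positive and 1 called, with a median of 0.23.

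Of the Hsp90 system, Ahsa2 (chr11:23487882-23498030), a relative of Ahsa1, was at 14.8 CPM at the lowest, 16.2 at the median and 20.2 at the highest in control libraries. In knockout libraries it was at 22.1, 29.6 and 38.04 CPM, with no overlap between the groups (0.75 ± 0.13 SE, adjusted p = 0.0102). It was called in 15 of 15 fits with 1 library left out (0.68 to 0.86). The gene shares its locus with Usp34 on the opposite strand, so its tags are uncertain in the same way. Ahsa1 (chr12:87266479-87273998) was at 46.6 CPM at the lowest, 64.7 at the median and 80.4 at the highest in control and 77.5, 103 and 111 CPM in the knockout. The lowest knockout library lay just under the highest control library (0.67 ± 0.15 SE, adjusted p = 0.035), and the call survived 6 of 15 single-library omissions. The inducible Hsp90aa1 (0.72, adjusted p = 0.121), the constitutive Hsp90ab1 (0.31, adjusted p = 0.449), Hsp90b1 of the endoplasmic reticulum (-0.04), the tether Stip1 (0.57, adjusted p = 0.184) and the Hsp70 partner St13 (0.15) were not called.

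Hspb8 (chr5:116408491-116422864) had the widest spread of the 4. It was at 43.5 CPM at the lowest, 196 at the median and 307 at the highest in control libraries and at 228, 604 and 761 CPM in knockout libraries, with means of 186 ± 97.2 (SD, n = 9) and 535 ± 222 CPM (SD, n = 6). The groups overlapped, and the 6-library set was low in both genotypes (1.29 ± 0.26 SE, adjusted p = 0.0295). The calls of Ahsa1 and Hspb8 held without control replicate 1, 2, 4, 6 or 9 or knockout replicate 2, and each was lost without any one of the other 9 libraries (adjusted p up to 0.12 and 0.159). Its partner Bag3 was at 0.25, adjusted p = 0.55. The other small heat shock proteins measured, Hspb1 (0.54, adjusted p = 0.266) and Hspb6 (0.71, adjusted p = 0.242), had positive values and were not called.

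**Figure D1:**
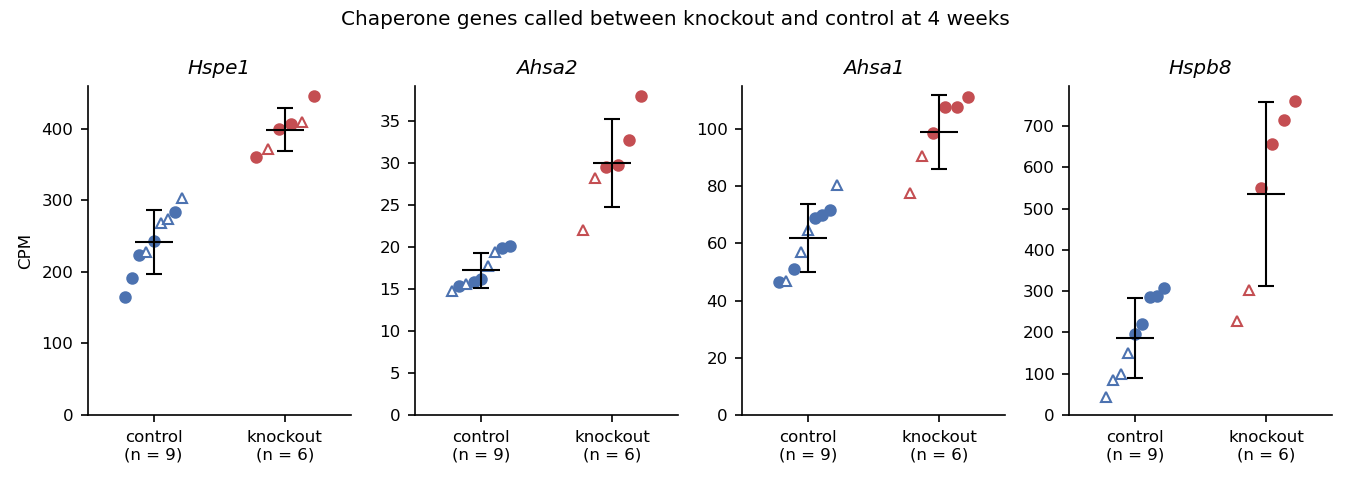
CPM of the 4 genes called between knockout and control at 4 weeks, 1 point per library, ordered by value within a group. Filled circles are libraries of the 9-library set and open triangles those of the 6-library set; bars are the mean and 1 SD. Hspe1 and Ahsa2 do not overlap between the groups, Ahsa1 overlaps by 1 library, and the Hspb8 libraries of the 6-library set are the lowest of each genotype.

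Several genes of the cytosolic Hsp70 cycle had positive values below the threshold, and others were negative. Hspa14, Dnaja4, Dnajb5 and Hspbp1 were the cytosolic genes with negative values, none of them called. Over all compartments the Hsp70 family had 3 of 7 positive and 0 called, with a median of -0.21. The constitutive Hspa8 (Hsc70) was at 88.8, 196 and 237 CPM (lowest, median, highest) in control and 194, 285 and 465 CPM in the knockout (0.83 ± 0.21 SE, adjusted p = 0.0739). Its J-domain partners Dnaja1 (0.64, adjusted p = 0.0595) and Dnajb1 (0.83, adjusted p = 0.0735) were close behind, and Dnaja1 was called in 2 of 15 fits with 1 library left out. The Hsp110 exchange factors Hspa4 (0.30), Hspa4l (0.23) and Hsph1 (0.39) were each positive and not called. Over the 26 cytosolic genes 22 were positive and 3 called, with a median of 0.31. The distant Hsp70 relatives Hspa12a (-0.76, adjusted p = 0.186) and Hspa12b (-0.57, adjusted p = 0.195), the latter known from endothelial cells, were negative and not called; 0 of 9 endothelial markers were positive (median -0.22) and 0 called, and their part in these values was not tested.

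Of 10 chaperones of the endoplasmic reticulum 4 were positive and 0 called, with a median of -0.04. BiP (Hspa5) was at 0.16, adjusted p = 0.676, and its J-domain partners Dnajb9 (-0.05), Dnajb11 (-0.10), Dnajc3 (0.29) and Dnajc10 (-0.43) had values on both sides of 0. Of 21 further genes of folding and the unfolded protein response in that compartment, 6 were positive and 0 called, with a median of -0.15. The J-domain genes of type B were split 5 to 5, and 14 of 23 of type C were positive, 0 called in each. Dnajb4 (0.12), Dnajb5 (-0.15), Dnajb6 (0.40), Dnaja2 (0.15), Dnaja3 (-0.13), Dnaja4 (-0.06), Hspa13 (-0.21), Hspa14 (-0.26) and Hsf1 (0.39) were not called.

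Other folding genes outside the name rule gave no calls at 4 weeks. Of the cytosolic chaperonin TRiC, which folds actin and tubulin, 7 of 8 subunits were positive (median 0.19). Of the Hsp90 co-chaperones 9 of 13 were positive (median 0.18). A list of further Hsp70 partners, which also held Hip1r and Hsf2, had 8 of 12 positive (median 0.05). Prefoldin had 3 of 5 positive and the mitochondrial quality control genes 5 of 10.

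The 6-library and 9-library sets were compared apart because they differ in much of what was measured. Within the set of 9, 4 knockout against 5 control libraries, the fold changes were 0.86, adjusted p = 0.032 for Hspe1, 0.89, adjusted p = 0.0199 for Ahsa2, 1.37, adjusted p = 0.000564 for Hspb8 and 0.79, adjusted p = 0.0522 for Ahsa1. Within the set of 6, 2 knockout against 4 control libraries, they were 0.54, 0.56, 1.49 and 0.44, with 0 of the 63 genes called. Without the pair of libraries whose Xist goes against the labelled sex all 4 were called (adjusted p from 0.00401 to 0.0153). Without a sex term Hspb8 (adjusted p = 0.128) and Ahsa1 (adjusted p = 0.0606) were not called, and in libraries labelled female alone 0 of the 63 were, with Hspe1 at 0.87, adjusted p = 0.0572 and Ahsa2 at 0.85, adjusted p = 0.0529. DESeq2 called 8 of the 63, all higher, beside 315 of all 10366 genes, where edgeR called 86. In the authors' deposited table for this experiment 10 of 64 genes were higher and 0 lower at an adjusted p below 0.05, beside 4.3% of 10731 genes: the same 4 and Stip1, Dnajb2, Hspd1, Dnajb1, Dnajc5 and Hspb6.

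The second comparison at 4 weeks was between libraries labelled female and male, which nearly coincides with the sets of 9 and 6. Of 63 genes 15 were higher and 11 lower in the libraries labelled female, beside 35.2% of all genes called (17.8% higher and 17.4% lower). Dnajb2 (chr1:75236406-75245692), a J-domain protein known from neurons, differed most. It was at 1.72 to 3.74 CPM in the set of 6 and at 32.5 to 60.4 CPM in the set of 9, with nothing in between. For labelled female against male its fold change was 4.15 ± 0.51 SE, adjusted p = 0.000153; at 21 weeks, in female libraries alone, its levels were 46.4 to 55.3 CPM in control against 43.03 to 66.8 CPM in knockout mice on normal diet.

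Stip1 (1.13 ± 0.22 SE, adjusted p = 0.00111), Hsp90ab1 (0.96 ± 0.21 SE, adjusted p = 0.00215), Hspb8 (1.30 ± 0.29 SE, adjusted p = 0.0031) and Dnajc10, a disulfide reductase of the endoplasmic reticulum (0.84 ± 0.16 SE, adjusted p = 0.00093), were higher in libraries labelled female. Hspb1, the small heat shock protein Hsp25, was lower (-1.58 ± 0.23 SE, adjusted p = 0.000194): it was at 13.5 to 29.4 CPM in the set of 9 and 42.5 to 79.9 CPM in the set of 6. Also lower were the J-domain proteins Dnaja1 (-0.93 ± 0.16 SE, adjusted p = 0.000421), Dnaja3 of mitochondria (-0.87 ± 0.19 SE, adjusted p = 0.00215), Dnajb6 (-0.76 ± 0.13 SE, adjusted p = 0.000443) and Dnajc3 of the endoplasmic reticulum (-0.71 ± 0.13 SE, adjusted p = 0.000627). Ranges of the labelled sexes did not overlap for 6 genes upwards, beside 3.25% of all genes, and for 2 downwards, beside 2.47%. With the set as a term beside labelled sex, 0 of the 63 genes and 0 of all genes were called by edgeR, and Hspb8 (-0.24) and Hsp90ab1 (-0.06) changed sign. Labelled sex and library set differ by 1 library.

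Other folding lists are read against the 35.2% of all genes called in this comparison. Among the TRiC subunits, which work as 1 complex, Cct6a was higher (2.28 ± 0.26 SE, adjusted p = 7.47e-05) and Cct3 lower (-0.74 ± 0.15 SE, adjusted p = 0.00144), with 3 called in each direction. These genes were chosen after their values were seen. Of the 12 genes listed as further Hsp70 partners 5 were higher and 1 lower. That list also held Hip1r, called higher, and Hsf2, called lower, which are not themselves Hsp70 partners. Of the 13 Hsp90 co-chaperones 3 were higher and 2 lower, and of the 21 genes of the endoplasmic reticulum list 5 and 3. Of the 10 genes of mitochondrial quality control 1 was higher and 2 lower. Skeletal muscle markers were positive for 18 of 20 with 1 called (Des), and brown adipocyte markers for 11 of 17 with 5 higher and 1 lower. Summed red blood cell markers were 3870 to 11300 CPM in the set of 6 and 619 to 1640 CPM in the set of 9, without overlap; of 4 tested, Hba-a1 and Hba-a2 were lower and Alas2 higher in libraries labelled female. The part of these markers in the chaperone values was not tested.

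**Figure D2:**
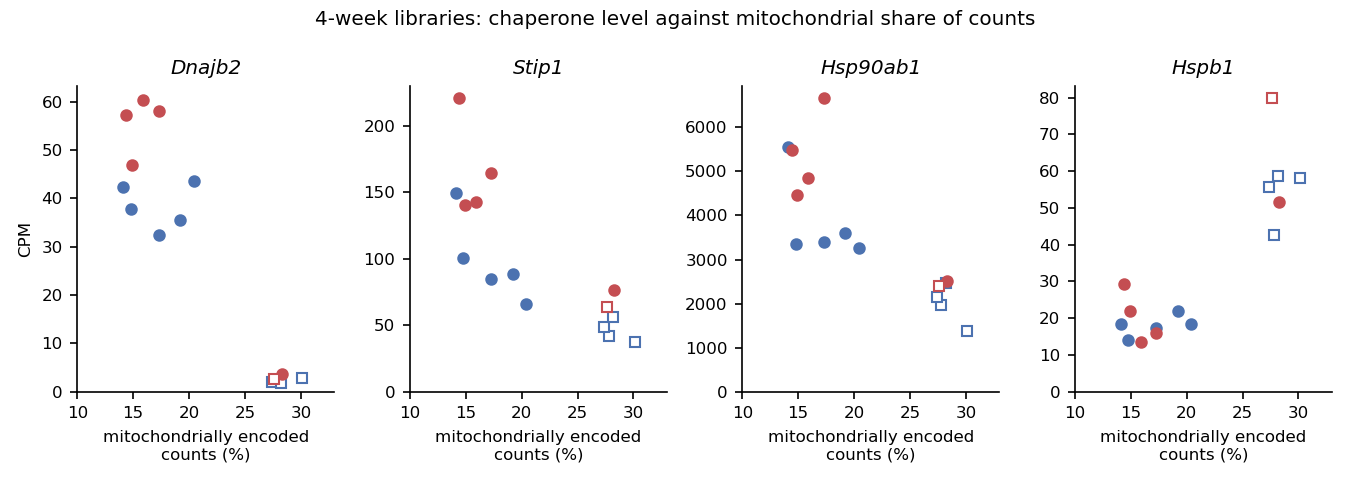
CPM of 4 genes in each 4-week library against the percent of counts that are mitochondrially encoded. Blue is control and red knockout; filled circles are labelled female and open squares labelled male. The 5 labelled male and 1 red circle, knockout replicate 2, lie apart at the right; for Dnajb2 and Hspb1 that circle has a level of the right-hand libraries, and for Stip1 it overlaps the left-hand ones.

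At 21 weeks on normal diet 3 of 73 genes were called between knockout and control, 2 higher and 1 lower, beside 2.65% of all 12082 genes (1.29% higher and 1.36% lower); before adjustment 13 were higher and 8 lower, beside 9.97% and 10.8%. Hspa9, the mitochondrial Hsp70, and Ahsa2 were higher in the knockout, and Hspbp1, an exchange factor that inhibits Hsp70, was lower. Their ranges did not overlap. In all, ranges of 4 of 73 genes did not overlap upwards and of 2 downwards, beside 2.53% and 1.8% of all genes. The median was 0.15 over the 73 and 0.02 over all genes. Without knockout replicate 4 the median of the chaperones was 0.075, and without replicates 3 and 4 it was -0.01. Replicates 3 and 4 were picked as the highest in the chaperone genes Hspa1a and Hspa1b, so that value is no independent test.

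Hspa9 (chr18:34937414-34954357) was at 958, 691, 895, 609.8 and 1002 CPM in control replicates 1 to 5 and at 1245, 1591, 1400.0, 1307 and 1276 CPM in knockout replicates 1 to 5. The lowest knockout library was above the highest control library (0.71 ± 0.17 SE, adjusted p = 0.0274). Ahsa2 was at 17.6, 15.03, 18.6, 19.3 and 16.7 CPM in control and at 21.1, 25.1, 37.3, 53.4 and 35.2 CPM in the knockout. Its control libraries lay close together and the knockout ones were wide, with replicate 4 the highest (0.99 ± 0.27 SE, adjusted p = 0.0476). Hspbp1 (chr7:4660521-4685068) was at 26.1, 29.3, 25.2, 37.3 and 29.5 CPM in control against 16.9, 12.1, 13.8, 7.47 and 14.8 CPM in knockout libraries. Every knockout library was below every control library (-1.18 ± 0.31 SE, adjusted p = 0.043). With 1 library left out Hspa9 was called in 16 of 20 fits, Hspbp1 in 9 and Ahsa2 in 7. Hspa9 was lost without control replicate 2 (adjusted p = 0.0529) or 4 (adjusted p = 0.0628) or knockout replicate 2 (adjusted p = 0.0715) or 3 (adjusted p = 0.0543), and without any one of these 4 libraries 0 of the 73 genes were called. Without control replicate 3, 6 were called. The numbers over all genes in these fits are not given here, so neither change need be particular to the chaperones. The Ahsa2 value was smallest without knockout replicate 4 (0.77, adjusted p = 0.134), as was that of Hspbp1 (-1.03, adjusted p = 0.102).

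None of these 3 calls was kept in 4 other fits, each with 0 of the 73 genes called, nor with the 2 groups fitted alone. Over all 9 alternative fits, these included, Hspa9 and Hspbp1 were each called in 3 and Ahsa2 in 2. DESeq2 called 2 of the 73 higher and 2 lower, beside 884 of all 12082 genes. With a term for the side of the first principal component the fold changes were 0.41, adjusted p = 0.404 for Hspa9, 0.56, adjusted p = 0.52 for Ahsa2 and -0.53, adjusted p = 0.515 for Hspbp1; that component held 34.9% of the variance, and 5 of 5 knockout but 1 of 5 control libraries on normal diet lay on its high side. Without control replicates 2 and 4, the highest in muscle markers, they were 0.52, adjusted p = 0.155, 0.97, adjusted p = 0.141 and -1.05, adjusted p = 0.147. Without knockout replicates 3 and 4, the highest in Hspa1a and Hspa1b, Ahsa2 was at 0.65, adjusted p = 0.289. Both were also the highest of their group for Ahsa2 (37.3 and 53.4 CPM). Its smaller value without them thus follows from that choice and tests nothing. With a muscle score as covariate Hspa9 was at 0.61, adjusted p = 0.155. The authors' deposited table for the second experiment, whose diet is not stated, called 1 of 74 genes, Hspa9 (0.90, adjusted p = 0.0175), beside 3.52% of 13251.

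Among the mitochondrial genes 5 of 8 were positive, 1 was called and the median was 0.49. Mitochondrially encoded counts were 11.9 to 18.3% in control and 17.7 to 19.1% in knockout libraries, and summed brown adipocyte markers 19800 to 40000 against 33300 to 40100 CPM, with 11 of 18 positive and 0 called. Both measures were lowest in control replicates 2 and 4, where Hspa9 was lowest too, and their part in these values was not tested. Hspd1 was at 278, 166, 302, 148 and 304 CPM in control against 393, 334, 325, 430.4 and 306 CPM in knockout libraries. The ranges did not overlap and the gene was not called (0.58 ± 0.20 SE, adjusted p = 0.105). Hspe1 was at 209.7, 152, 236, 243 and 268 CPM in control against 275, 261, 301, 334 and 298 CPM in knockout libraries, which overlapped (0.41 ± 0.20 SE, adjusted p = 0.239). Dnaja3, the mitochondrial J-domain partner of Hspa9, was at 0.91, adjusted p = 0.122, Dnajc19 at 0.85 and Dnajc15 at -0.06. Of the mitochondrial quality control genes outside the rule, Afg3l2, a subunit of an inner membrane protease, was higher (0.83 ± 0.22 SE, adjusted p = 0.0430), 1 of 10 called. The pseudogene entry Hspd1-ps3 was counted at 121 to 361 CPM, near the level of Hspd1, with a fold change of 0.17; how tags were shared between gene and pseudogene is not given.

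In the Hsp90 system Hsp90b1 of the endoplasmic reticulum was at 93.9, 163, 160.0, 108 and 146 CPM in control against 178, 209.8, 194, 263 and 192 CPM in knockout libraries, without overlap and not called (0.63 ± 0.21 SE, adjusted p = 0.0896). Hsp90aa1 was at 0.92, adjusted p = 0.108 and Hsp90ab1 at 0.24, adjusted p = 0.47. Ahsa1, called at 4 weeks, was at -0.03, adjusted p = 0.949, and Stip1 at -0.34. The Hsp90 co-chaperone Cdc37, which brings kinases to Hsp90, was lower (-0.57 ± 0.15 SE, adjusted p = 0.0403), 1 of 13 called in that list. Of the Hsp110 genes 3 of 3 were positive, with Hspa4l at 0.81, adjusted p = 0.108.

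The small heat shock protein Hspb6 (Hsp20), abundant in muscle, was at 1.73, 126, 34.5, 161 and 11.1 CPM in control against 10.4, 7.07, 7.42, 12.9 and 5.56 CPM in knockout libraries. The control replicates 2 and 4 are far above the rest (-2.92 ± 0.86 SE, adjusted p = 0.0735), and they are also the highest in the summed muscle markers. With a muscle score as covariate the fold change was -0.12, adjusted p = 0.959, and without both libraries -0.87, adjusted p = 0.578. Hspb2, another small heat shock protein of muscle, which overlaps Cryab on the opposite strand, was at 0, 8.52, 3.996, 9.89 and 0.725 CPM in control against 2.53, 0.524, 0, 0.969 and 0 CPM in the knockout (-2.50 ± 1.00 SE, adjusted p = 0.156). The 30 muscle markers were negative in 30 of 30 with 1 called (Myl1), at a median of -4.19. Hspb8, higher in the knockout at 4 weeks, was at 241, 292, 227, 667 and 412 CPM in control against 214, 142, 191, 268 and 255 CPM in knockout libraries, with a negative value that was not called (-0.78 ± 0.28 SE, adjusted p = 0.123). The summed muscle markers themselves had p = 0.0714 between the groups by an exact two-sided permutation test on the log2 sums.

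**Figure D3:**
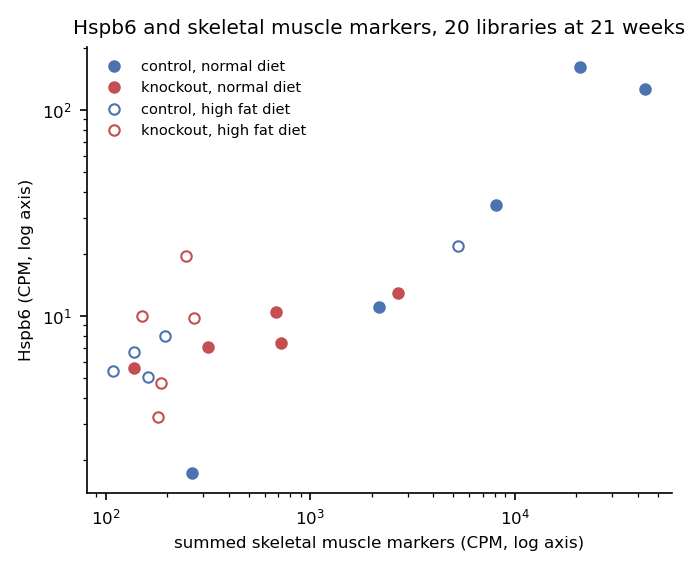
CPM of Hspb6 against the summed CPM of the 30 skeletal muscle markers in the 20 libraries at 21 weeks, both on log axes. Control replicates 2 and 4 on normal diet, with sums of 43500 and 20800 CPM, hold the highest Hspb6 levels (126 and 161 CPM).

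The heat-inducible genes set single libraries apart. Hspa1a was at 0, 3.67, 30.1, 71.1 and 1.24 CPM in knockout replicates 1 to 5 on normal diet and at 0, 6.26, 4.62, 5.85 and 2.17 CPM in control replicates. Its near-identical copy Hspa1b was at 0.563, 3.405, 14.8, 36.5 and 2.27 and 0, 4.26, 1.12, 0 and 0 CPM. Knockout replicates 3 and 4 were high and the other knockout libraries lay within the control range (2.55 ± 1.27 SE, adjusted p = 0.265 for Hspa1a and 3.40 ± 1.24 SE, adjusted p = 0.131 for Hspa1b). Knockout replicate 4 was the highest of all 20 libraries for 11 of 73 chaperone genes (15.1%), where it was the highest for 4.82% of all genes. These include Hspa1a and Hspa1b themselves. Hsph1, also among the 11, was at 38.9, 27.5, 66.1, 131 and 28 CPM in knockout replicates 1 to 5. Dnajb1, another of them, was at 37.2, 57.6, 93, 136 and 65.3 CPM. Other libraries led for many chaperones too. Control replicate 4 on normal diet was the highest for 14 (19.2%), beside 14.1% of all genes. Control replicate 1 on high fat diet was the highest for 8 (11%), beside 3.65%. Immediate early genes, which respond within minutes to handling and other stimuli, summed to 211, 200, 505, 258 and 594 CPM in knockout replicates 1 to 5 on normal diet. Control replicates were at 336, 139, 127, 262 and 175 CPM. The highest sum was in knockout replicate 5, where Hspa1a was at 1.24 CPM. Of these genes 8 of 9 were positive and 1 called (Btg2, 1.32 ± 0.36 SE, adjusted p = 0.0489). Their part in the Hspa1a and Hspa1b values was not tested.

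**Figure D4:**
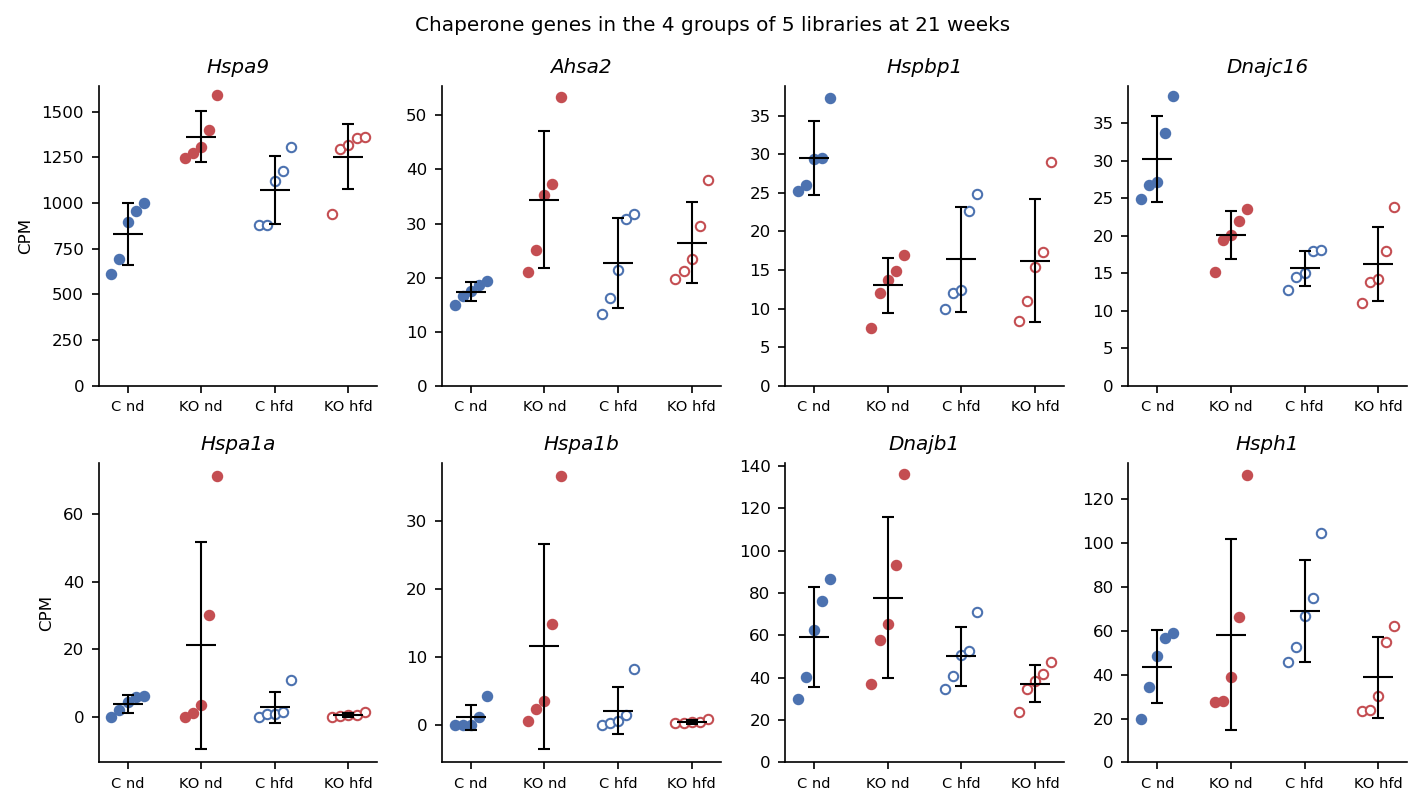
CPM of 8 genes in the 4 groups of 5 libraries at 21 weeks (C, control; KO, knockout; nd, normal diet; hfd, high fat diet). Points are libraries ordered by value, bars the mean and 1 SD. Hspa9, Ahsa2 and Hspbp1 do not overlap between genotypes on normal diet, Dnajc16 does not overlap between diets in control, and 2 knockout libraries on normal diet carry most of the Hspa1a and Hspa1b tags.

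The remaining core genes on normal diet were not called. They were Hspa8 (0.46), Hspa5 (-0.25), Hspa4 (0.04), Hspa2 (-0.54), Hspa12a (0.15), Hspa12b (-0.12), Hspa13 (-0.17), Hspa14 (-0.11), Hspb1 (0.52), Hsf1 (0.56), Bag3 (0.68) and St13 (-0.08). The J-domain genes Dnaja1 (0.84), Dnaja2 (0.43), Dnaja4 (-0.70), Dnajb4 (0.43), Dnajb5 (0.26), Dnajb6 (0.18), Dnajb9 (1.01), Dnajb11 (-0.39) and Dnajc3 (0.14) were likewise below the threshold. Of the endoplasmic reticulum list outside the rule 10 of 21 were positive, of TRiC 4 of 8 and of prefoldin 2 of 6, 0 called in each.

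On high fat diet 0 of 73 genes were called between knockout and control by edgeR, beside 0.116% of all genes (0.0993% higher and 0.0166% lower), and DESeq2 called 0; before adjustment 0 were higher and 3 lower at p below 0.05, beside 2.37% and 2.7% of all genes. No range of these genes was free of overlap, beside 1.18% of all genes upwards and 0.927% downwards. The median was -0.09, against -0.01 over all genes; without control replicate 2 on this diet it was -0.013. Genes whose average level was under 5 CPM were not ranked by p-value. Of the others, the J-domain gene Dnaja4 had the smallest p-value (-0.81, adjusted p = 0.832). It was at 17.7, 9.19, 9.94, 15 and 14.1 CPM in control against 9.21, 4.29, 6.92, 9.94 and 7.06 CPM in knockout libraries. Hspa12a (-1.14, adjusted p = 0.862), Hspb1 (-0.72, adjusted p = 0.952), Hsph1 (-0.83, adjusted p = 0.999) and Hsp90aa1 (-0.58, adjusted p = 0.999) followed, all with negative values, and that of Hsp90aa1 was -0.32 without control replicate 1. Hspa9 was at 1176, 1304, 1120.0, 881 and 879 CPM in control against 1295, 938, 1315, 1353 and 1359 CPM in knockout libraries, which overlapped (0.22 ± 0.17 SE, adjusted p = 0.999). Ahsa2 (0.22), Ahsa1 (0.03), Hspbp1 (-0.02), Hspe1 (-0.23), Hspd1 (0.10) and Hspb8 (0.35) were not called. Of the 30 cytosolic genes 8 were positive and of the 8 mitochondrial 3.

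High fat against normal diet in control mice asked how the diet changes these genes. Of 73 genes 1 was called, Dnajc16, which was lower on high fat diet, beside 0.795% of all genes (0.406% higher and 0.389% lower). The J-domain protein encoded by Dnajc16 (chr4:141760189-141790931) is membrane-bound. It was at 27.1, 38.6, 24.9, 33.7 and 26.8 CPM on normal and 18.1, 12.7, 17.9, 14.5 and 15.1 CPM on high fat diet. The ranges did not overlap (-0.94 ± 0.22 SE, adjusted p = 0.0419), and the call survived 8 of 20 single-library omissions and was lost without the filter on low counts (adjusted p = 0.0505). Its adjusted p was highest without control replicate 2 on high fat diet (0.157).

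Over the 73 genes the median was 0.23, against 0.00 over all genes, and before adjustment 13 were higher and 7 lower, beside 8% and 8.2% of all genes. Ranges of 2 genes did not overlap downwards, beside 1.03% of all genes. Hspa8 was at 71.6, 53.6, 90.4, 64.3 and 79.98 CPM on normal and 118, 146, 94.1, 165 and 148 CPM on high fat diet. Those ranges did not overlap, as for 1 of 73 genes upwards beside 1.52% of all genes, and edgeR did not call it (0.90 ± 0.24 SE, adjusted p = 0.0686) while DESeq2 did (adjusted p = 0.0228). Of the mitochondrial genes 7 of 8 were positive, 0 called, with a median of 0.55: Hspe1 was at 0.58, adjusted p = 0.134, Hspd1 at 0.56, adjusted p = 0.15, Hspa9 at 0.37, adjusted p = 0.282 and Dnajc19 at 1.12. Hsp90aa1 was at 0.94, adjusted p = 0.135. Hspb6 was at -2.80, adjusted p = 0.109, and with a muscle score as covariate at 0.71, adjusted p = 0.867, the opposite sign; muscle markers were negative in 30 of 30. Brown adipocyte markers were positive in 14 of 18 with 2 higher (Cpt1b and S100b; median 0.51), and their sums were 19800 to 40000 CPM on normal and 32100 to 57600 CPM on high fat diet. Red blood cell markers were positive in 5 of 5 with 0 called (median 0.92), and their sums, 1370 to 1990 against 2330 to 4880 CPM, did not overlap. Mitochondrially encoded counts were 11.9 to 18.3% on normal and 17.1 to 25.9% on high fat diet. The part of these markers in the chaperone values was not tested. This comparison shares the control libraries on normal diet with the genotype comparison on that diet, so their values are not independent: Hspbp1 was at -0.84 here, Hsp90b1 at 0.55 and Hspd1 at 0.56, as against -1.18, 0.63 and 0.58 for knockout against control. The Dnajc16 value of the knockout on normal diet was -0.58, adjusted p = 0.137.

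In knockout mice 0 of 73 genes were called between diets by edgeR, beside 0.372% of all genes. DESeq2 called 2, beside 168 of all 12082 genes. Before adjustment 1 was higher and 6 lower, beside 4.78% and 4.44% of all genes. The median was -0.05, against -0.03 over all genes, and it was 0.028 without knockout replicate 4 on normal diet. Dnajb1 was at 37.2, 57.6, 93, 136 and 65.3 CPM on normal and 38.4, 34.5, 41.8, 47.3 and 23.9 CPM on high fat diet, which overlapped (-1.07 ± 0.31 SE, adjusted p = 0.163). Hspa1a was at 0.376, 0.715, 0, 1.498 and 0.673 CPM on high fat diet (-4.96 ± 1.46 SE, adjusted p = 0.216). Knockout replicates 3 and 4 on normal diet were picked as the highest in Hspa1a and Hspa1b. The smaller Hspa1a value without them (-1.27, adjusted p = 1) follows from that choice and tests nothing. Hspb1 (-1.05, adjusted p = 0.253), Dnajc25 (0.37, adjusted p = 0.535) and Dnajb4 (-0.49, adjusted p = 0.537) came next by p-value. This ranking left out genes whose average level was under 5 CPM. Hspa1b, with group means of 11.5 CPM on normal and 0.398 CPM on high fat diet, was therefore not ranked. Knockout replicates 3 and 4 were also the highest of their group for Dnajb1, Hspb1 and Dnajb4. Smaller values of these genes without the pair thus follow from that choice as well. Without this pair of libraries Dnajb1 was at -0.52, adjusted p = 0.896, Hspb1 at -0.29, adjusted p = 1 and Dnajb4 at -0.09. Immediate early genes were positive in 1 of 9 with 0 called (median -0.93). The comparison shares the knockout libraries on normal diet with the genotype comparison there.

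The test of the difference between the genotype effects on the 2 diets called 0 of 73 chaperone genes and 0 of all genes by edgeR, and DESeq2 called 0 of the 73; before adjustment 3 were higher and 8 lower at p below 0.05, beside 3.46% and 2.93% of all genes. Hsp90aa1 (-1.49, adjusted p = 0.605), Hspa4l (-1.19, adjusted p = 0.632), Hspb8 (1.13, adjusted p = 0.688), Hspbp1 (1.17, adjusted p = 0.75) and Hspb1 (-1.24, adjusted p = 0.75) had the smallest p-values of the genes ranked. Those whose average level was under 5 CPM were again left out of the ranking. The called genes of the normal diet were at -0.49, adjusted p = 0.784 for Hspa9 and -0.77, adjusted p = 0.784 for Ahsa2. The data therefore show calls on one diet and none on the other without showing that the effects differ.

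**Figure D5:**
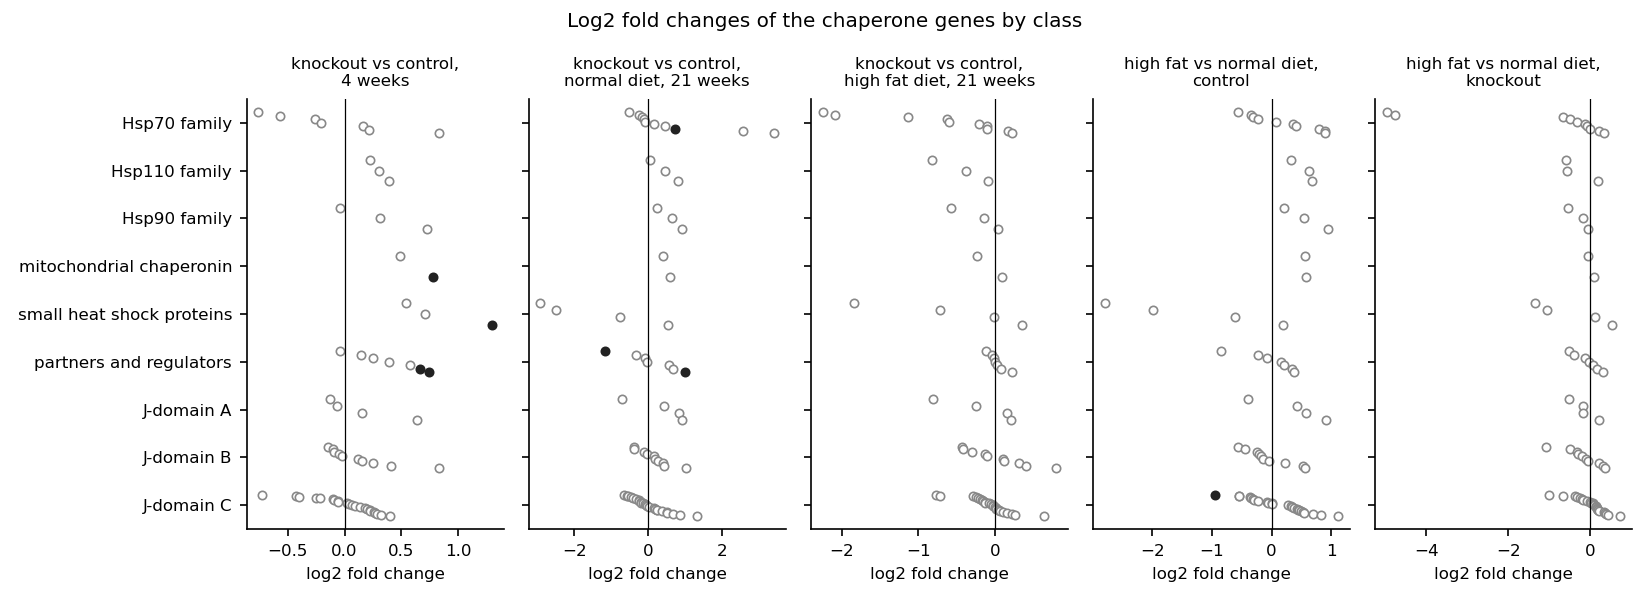
Log2 fold changes of the chaperone genes by class in 5 comparisons, 1 point per gene and a separate linear axis per panel; filled points are called at an adjusted p below 0.05 by edgeR. The calls are 4 at 4 weeks, 3 for knockout on normal diet and 1 for diet in control, and in the last panel the far points at the left are Hspa1a and Hspa1b.

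Of the 5 genes called in either genotype comparison at 4 weeks or on normal diet at 21 weeks beside Hspbp1, Ahsa2 alone was called in both, with 0.75 and 0.99. Hspe1 was at 0.78 and 0.41, Hspa9 at 0.21 and 0.71, Ahsa1 at 0.67 and -0.03, and Hspb8 at 1.29 and -0.78. Hspbp1 was at -0.04 at 4 weeks. The 2 experiments differ in age and in sex, their counts come from separate tables, and no test between them was made.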

How the data were processed

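RNA from brown adipose tissue was made into QuantSeq 3′ libraries by oligo-dT priming, per the labels' protocols. The authors deposited raw counts per gene. STAR 2.5.3a, featureCounts, limma and the build mm10 (GRCm38) are named in the submitters' processing notes, with no role or order; the sources used here give neither the annotation nor the strand setting. The authors' tables also hold log2 fold changes and p-values of knockout against control, per the file headers, with the diet of the second table not stated.

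Counts were tested per experiment with edgeR 4.0.16 (R 4.3.3): genes kept by filterByExpr with a minimum count of 10, TMM scaling, the robust quasi-likelihood test, and Benjamini-Hochberg adjustment over all genes tested (10366 and 12082), called at an adjusted p below 0.05. The 4-week model held genotype and labelled sex; the 21-week model held 1 mean for each of 4 groups. CPM uses the TMM-scaled library size. At 21 weeks, 18 rows whose names had turned into dates (0.09% of counts) were left out. Alternatives were DESeq2 1.42.0, other size factors, no filter, other terms, and libraries left out. The closing section gives the effect of some of them, and that of other size factors is not given separately. The fit was tested on simulated counts.

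Promoter windows came from a RefSeq table on GRCm38.p6; gene coordinates came from GENCODE on GRCm38. Named genes were the core genes of each class, every called gene, the 5 highest and 5 lowest called for labelled sex, and the smallest adjusted p where fewer than 5 were called. The ranking by p-value left out genes whose average level in the experiment was under 5 CPM. The members and lists were chosen with earlier results of these data known. No pair of libraries in a group agreed within sampling noise: the lowest chi-square per gene was 5.19 over 51 pairs and 8.3 over 40 pairs. Counts of PCR products without molecular identifiers limit the precision, and a level of a few CPM rests on few tags.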

Additional observations from a re-analysis of the deposited data

Results flagged for a closer look

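In 11 of 166 combinations of a named gene and a group of 4 to 10 libraries, 1 library stood far from the others. The measure was its gap to the nearest over the range of the group. For normally distributed values chance flags about 1 in 20 such combinations. The rule was applied to CPM without logs, for which that rate need not hold. The combinations share libraries, so they are not independent. At 4 weeks Dnaja1 was at 152 CPM in knockout replicate 1, where the others were at 52.2 to 77.2, and Dnaja3 was at 181 CPM in control replicate 1, where the others were at 52.1 to 97.2. At 21 weeks on normal diet, control replicate 4 was low in Dnaja1 (25.6 CPM, others 62.1 to 71) and high in Dnajc10 (41.8 CPM, others 18.4 to 23.5). Dnaja4 was high in control replicate 2 (26.3 CPM, others 14 to 17) and in knockout replicate 4 (22 CPM, others 5.56 to 9.11), and Dnajc3 was low in knockout replicate 2 (42.2 CPM, others 52.2 to 54.1).

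On high fat diet Hspa12a was high in knockout replicate 3 (7.99 CPM, others 3.01 to 4.09) and Hspa9 low in knockout replicate 2 (938 CPM, others 1290 to 1360). Hspa1a was high in control replicate 2 (11.1 CPM, others 0 to 1.63). Hspb6 was high in control replicate 3 (22 CPM, others 5.03 to 7.98), the library with the highest summed muscle markers on that diet (5280 CPM).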

How the results depend on the processing

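Numbers are chaperone genes called by edgeR unless another tool is named. Knockout against control at 4 weeks (4) gave 8 with DESeq2, 7 with the set of libraries replacing sex, 2 without a sex term, 0 in libraries labelled female and 0 within the set of 6. Labelled sex (26) gave 0 with the library set beside it; Hspb8 then turned to -0.24 and Hsp90ab1 to -0.064. Knockout on normal diet (3) gave 2 higher and 2 lower with DESeq2. It gave 0 with the 2 groups fitted alone, with the muscle score and with the principal component side. It also gave 0 without the libraries highest in muscle markers and without those highest in Hspa1a. High fat diet in control (1) gave 3 with DESeq2 and 0 without the filter and in those same 5 fits; Hspb6 turned to 0.71 with the muscle score. High fat diet in knockout (0) gave 2 with DESeq2. The causes were not tested. Over all genes the numbers called by edgeR and DESeq2 were 86 and 315, 3648 and 3817, 320 and 884, 14 and 71, 96 and 502, 45 and 168, and 0 and 12, in the order of the report. For most of the other fits such numbers are not given here, so a change need not be particular to the chaperones. With 1 library left out the ranges were 2 to 6, 18 to 30, 0 to 6, 0 to 0, 0 to 2, 0 to 0 and 0 to 0 in that order. The fits without libraries picked by muscle markers, Hspa1a or Xist, and that with the principal component, were chosen after seeing the data.

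Same-numbered libraries had correlations of -0.657 to 0.658 (6 pairs, median -0.517) at 4 weeks and -0.6 to 0.494 (30 pairs, median -0.0379) at 21 weeks. For other pairs the medians were 0.385 and 0.00481. Some same-numbered libraries at 4 weeks lie in different library sets, so these values cannot decide whether the numbers pair the libraries. At 4 weeks the replicate block was fitted without control replicates 7, 8 and 9, whose numbers no knockout library has. With the block the calls were 0 for genotype at 4 weeks, 2 for labelled sex, 1 for genotype on normal diet, and 0 for the others.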
